A study of Mus musculus with 8 samples.

Results

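Of the 16902 gene symbols measured in mouse back-skin epidermis, 7 keratin genes are described here: Krt5, Krt14 and Krt15, typical of the basal layer, and Krt1, Krt10, Krt2 and Krt77, typical of the suprabasal layers. They were chosen by symbol, and each has 1 row in both deposited tables. Ovol1, a zinc-finger transcriptional repressor of epithelial tissues, was studied in CD1 mice with and without imiquimod (IMQ), which activates Toll-like receptors and gives mouse skin a psoriasis-like inflammation. The 4 groups were untreated Ovol1 +/- controls, untreated Ovol1 -/-, IMQ-treated Ovol1 +/+ controls and IMQ-treated Ovol1 -/-, with 2 libraries each, 1 from a female and 1 from a male. The sources used here give no dose or duration of IMQ, no age, no design of the deleted allele and nothing on pooling of animals. The untreated mice are labelled as having had no treatment, which is not a vehicle control. Since nothing in the labels says more about how the 2 mice of a group were taken, p-values measure only the spread between these libraries.

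Keratins are the intermediate filament proteins of epithelia. A filament forms from a type I (acidic) and a type II (basic) partner: type II Krt5 pairs with type I Krt14 in dividing basal keratinocytes, and type II Krt1 pairs with type I Krt10 once a cell leaves the basal layer. Krt15 is a further type I keratin of basal keratinocytes and of the hair follicle bulge. Krt2 is a type II keratin of the upper suprabasal layers, and Krt77 is a type II keratin related to Krt1. Loss of the basal pair makes the basal layer fragile, and mutations in the suprabasal pair cause blistering and thickened skin.

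All 7 genes lie on the minus strand of mm10 as protein-coding genes, in the 2 keratin clusters. The type II genes are on chromosome 15: Krt5 (101707070 to 101712898), Krt2 (101810689 to 101818169), Krt1 (101845426 to 101850794) and Krt77 (101858731 to 101869705), a span of 163 kb. Krt1 and Krt77 are neighbours 7.94 kb apart. The type I genes are on chromosome 11: Krt10 (99385254 to 99389364), Krt15 (100131758 to 100135928) and Krt14 (100203162 to 100207548), with 742 kb between Krt10 and Krt15.

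RefSeq promoter windows of GRCm38.p6 were at hand for 5 of the 7 genes. The 100 bases before the RefSeq start are printed for the 4 genes whose window begins within 7 bases of the GENCODE start. Of these, 3 are suprabasal genes that stood lower in IMQ-treated Ovol1 -/- epidermis. Krt5, their basal counterpart, also stood lower there, with a log2 difference of -0.43. Capitals mark matches to the TATA-box core TATANA on the printed strand.
Krt10, chr11:99389365-99389464, minus strand: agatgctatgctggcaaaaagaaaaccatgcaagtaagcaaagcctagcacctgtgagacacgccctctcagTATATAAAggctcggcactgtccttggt
Krt77, chr15:101869706-101869805, minus strand: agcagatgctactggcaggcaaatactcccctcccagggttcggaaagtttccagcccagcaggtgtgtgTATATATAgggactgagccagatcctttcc
Krt2, chr15:101818170-101818269, minus strand: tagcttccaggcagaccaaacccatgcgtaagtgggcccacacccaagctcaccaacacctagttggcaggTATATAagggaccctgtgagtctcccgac
Krt5, chr15:101712906-101713005, minus strand: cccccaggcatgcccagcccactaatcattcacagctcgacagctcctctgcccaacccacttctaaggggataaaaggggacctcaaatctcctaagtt
Over both strands, the 3 suprabasal promoters hold overlapping or single TATANA matches that begin between 32 and 26 bases before the start. Krt5 held no match to these exact letters, and near matches to the TATA box were not searched. The Krt77 match at 32 bases is on the other strand and is not in capitals. In the 250 bases before the start, on both strands, 22.6% of 32851 RefSeq windows hold TATANA. None of the 5 keratin windows held TGANTCA (the AP-1 core, in 6.75% of windows), CCGTTA (the core read by OVOL1, 2.18%) or GCCNNNGGC (the AP-2 core, 13.7%), which says only that these letters are not in these windows. The Krt14 window begins 1518 bases from the GENCODE start and lies inside the annotated gene. It therefore does not show the sequence before that start.

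The libraries held 28.6 to 43.1 M reads and 16249 to 16603 genes with a read. The deposited value is a normalised read count in arbitrary units, scaled within the untreated and the IMQ table separately. Read counts recovered from it served for values relative to library size (CPM, with TMM factors) on 1 scale over the 8 libraries. The Ovol1 row was higher in the -/- libraries, at 27433 and 26601 normalised counts against 16629 and 14582 untreated and at 13457 and 13077 against 7635 and 9556 under IMQ. A count over the whole gene does not check a deletion of part of it, so the -/- libraries are called labelled knockouts. Summed markers of other cell types varied between libraries. The summed level of 14 dermal fibroblast genes was 170 to 751 CPM untreated, 418 and 3441 CPM in the IMQ controls and 241 and 2177 CPM in the IMQ labelled knockouts, and at most 1 of the 14 was at 0 in any library.

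The 7 keratins made up 3.44% to 3.86% of all reads in the 4 untreated libraries, 3.30% and 3.55% in the female and male IMQ controls, and 2.19% and 2.75% in the female and male IMQ labelled knockouts. The IMQ labelled knockouts thus lay below every other library. The other 39 keratin genes together had their largest shares in the IMQ labelled knockouts, with 0.522% to 0.625% of reads untreated, 0.693% and 0.853% in the IMQ controls and 1.40% and 1.14% in the IMQ labelled knockouts. Of all keratin reads, the 7 held 84.9% to 88.1% untreated, 82.6% and 80.6% in the IMQ controls, and 61.0% and 70.7% in the IMQ labelled knockouts. Shares have no test here. Krt77 had more reads than any other gene in all 4 untreated libraries and in the female IMQ control. It ranked second in the male IMQ control, and 6 and 5 in the IMQ labelled knockouts.

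**Figure D1:**
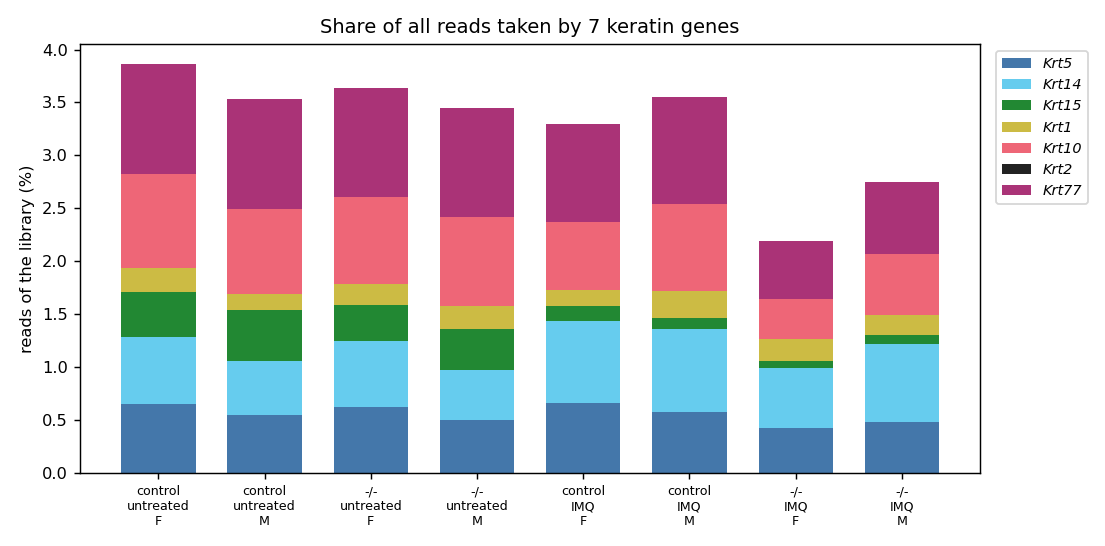
Share of each library's reads (percent, stacked bars starting at 0) taken by the 7 keratin genes, by group and sex. The stacks reach 3.30% to 3.86% in 6 libraries and 2.19% and 2.75% in the female and male IMQ labelled knockouts; the Krt15 band is visible mainly in untreated libraries.

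Per length (reads per kilobase of annotated exon, divided by the library's reads in M), Krt10 was the highest of the 7 in untreated controls at 3998 ± 297 (SD, n = 2). It was followed by Krt77 (3533 ± 14.5), Krt14 (3262 ± 454), Krt5 (2712 ± 346) and Krt15 (2557 ± 223). In that order the neighbours Krt77 and Krt14, Krt14 and Krt5, and Krt5 and Krt15 overlapped between libraries. Krt1 was lower, at 436 ± 133, and Krt2, at 2.15 ± 0.0689, was far below the rest. The Krt1 value depends on its length: exons of all its transcripts cover 4415 bases, and the longest coding transcript, chosen as a length after the annotation was seen, gives 784. Under IMQ, Krt14 led, with 4456 ± 54.8 in controls and 3682 in labelled knockouts, and Krt15 was at 676 and 448, overlapping with Krt1. With the longest coding transcript as length, Krt1 stood above Krt15 without overlap in the IMQ labelled knockouts (852 and 750 against 410 and 521).

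The first comparison asked whether the keratins differ by genotype in untreated epidermis. None of the 7 was called at an adjusted p of 0.05, and 0% of the 14614 genes tested were (limma; 4.46% had an unadjusted p under 0.05 in either direction and 1.67% with a lower value, against 0 of the 7). Of all genes, edgeR called 0 and DESeq2 89, with none of the 7 among them. Median log2 fold change was -0.09 for the 7 and -0.00 for all genes. The labelled knockouts lay below both controls for 3 of the 7 (Krt15, Krt2 and Krt77), as did 16.4% of all genes, and 5 of 7 were lower in both sexes against 28.5% of all genes.

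In the untreated basal genes, the normalised counts of Krt5 were 241752 (female) and 196208 (male) in controls and 225290 and 180451 in labelled knockouts. Those of Krt14 were 234400 and 187127 against 227707 and 169079. The ranges overlapped for both, and the female library was the higher one in each genotype. Krt15 was at 157745 and 173566 in controls and at 126581 and 140401 in labelled knockouts, which do not overlap. Its log2 difference was -0.31 (SE 0.20, limma adjusted p = 1.00), -0.32 in females and -0.31 in males. All 18 of 18 genes of the hair follicle stem cell and outer root sheath list stood below control in untreated labelled knockouts, with a median of -0.23 and 0 called. That list includes Cd34 (-0.58) and Dkk3 (-0.57). Of 15 sebaceous gland genes, 15 lay above control, with a median of 0.84 and 0 called. The part of these lists in the Krt15 value was not tested.

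Among the untreated suprabasal genes, Krt77 was at 384191 and 375751 normalised counts in controls and at 373646 and 367938 in labelled knockouts, a log2 difference of -0.04 (SE 0.18). Krt10 (331017 and 289735 against 302276 and 303739) and Krt1 (87074 and 54656 against 70205 and 77035) overlapped. Relative to its mean, Krt1 had the widest control spread of the abundant members. Krt2, with 113 to 237 reads per untreated library, was at 205 and 208 normalised counts in controls and 117 and 144 in labelled knockouts. Its log2 difference of -0.66 had an SE of 0.60, and the interval for the labelled knockout, 23.9% to 167% of control, is wide.

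**Figure D2:**
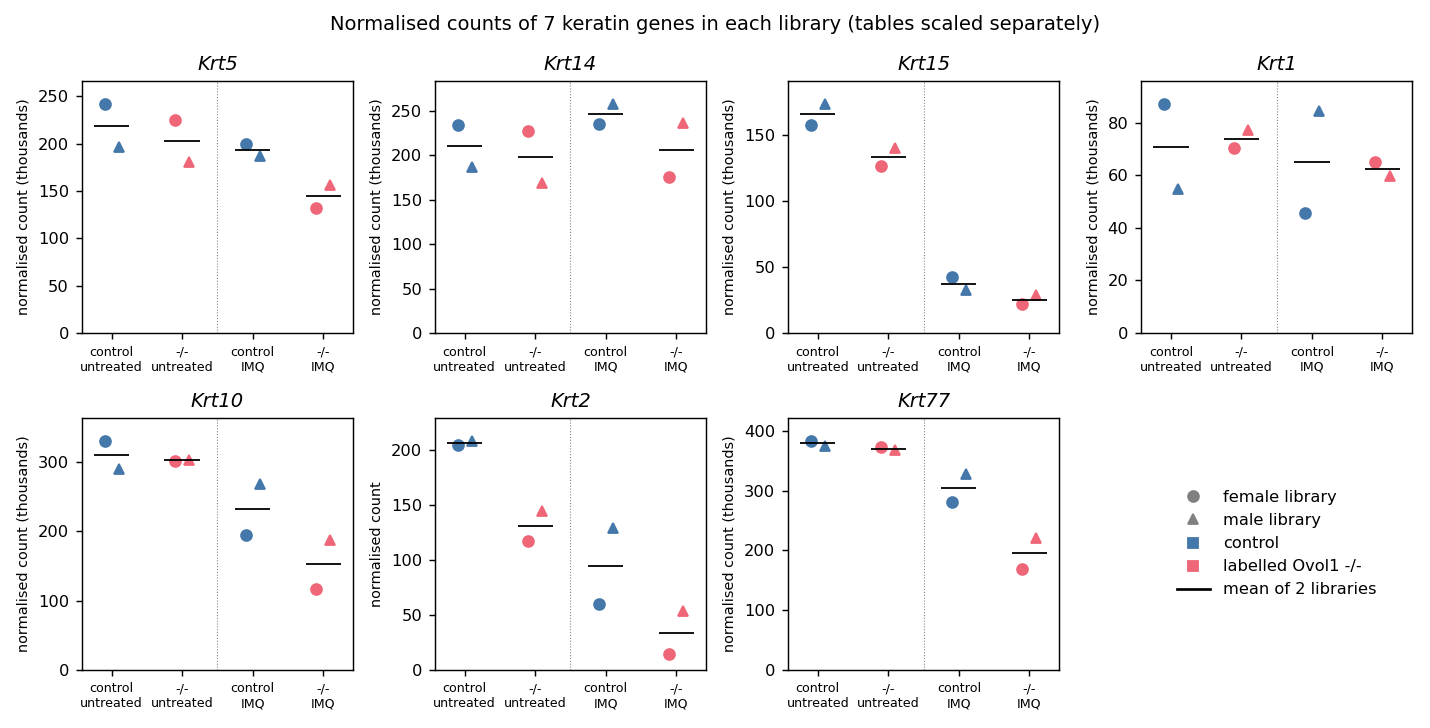
Normalised counts (linear axis from 0, counts divided by 1000 except for Krt2) of the 7 keratins in each library, with 1 panel per gene; symbols mark female and male libraries, and the dotted line separates the 2 tables, which were scaled separately. Krt77, Krt10, Krt15, Krt5 and Krt2 have both IMQ labelled knockout libraries below both IMQ controls, and Krt14 and Krt1 overlap.

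In IMQ-treated epidermis, 6 of the 7 keratins stood lower in labelled knockouts in both sexes, but none passed the adjusted threshold. Median log2 difference was -0.57, against -0.01 for all genes. No member was called, while 0.438% of genes were. Both labelled knockout libraries lay below both controls for 5 of the 7 (Krt5, Krt15, Krt10, Krt2 and Krt77), against 26.4% of all genes, and 6 of 7 were lower in both sexes against 34.6%. Krt15, Krt10, Krt2 and Krt77 had an unadjusted p under 0.05 and a lower value. That is 4 of 7, against 11.9% of all genes in that direction and 22% in either direction. Limma adjusted p-values of the 7 ran from 0.119 to 0.994. The fit estimates the spread from the untreated and IMQ libraries together. With each table fitted alone, the limma unadjusted p was 0.0242 for Krt77, 0.0398 for Krt15, 0.0754 for Krt2 and 0.0831 for Krt10.

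Krt77 had the smallest p. It was at 282095 (female) and 328511 (male) normalised counts in IMQ controls and 169625 and 220356 in labelled knockouts. The groups do not overlap, and the labelled knockouts were at 63.5% of control (95% interval 47.3% to 85.2%). The log2 difference was -0.65 (SE 0.18; limma unadjusted p = 0.00772, adjusted p = 0.119), -0.73 in females and -0.58 in males. DESeq2 called Krt77, at -0.61 with adjusted p = 0.00935, in a fit that called 8.5% of genes. Krt10, the type I suprabasal keratin, was at 195382 and 268557 against 117001 and 187343, again without overlap. Its log2 difference was -0.63 (SE 0.26, limma adjusted p = 0.213). It was -0.29 without the female and -0.97 without the male labelled knockout, and -0.40 without the male control.

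Krt1, the type II partner of Krt10, overlapped between the groups. It was at 45642 and 84480 in controls and 65181 and 59554 in labelled knockouts, with a log2 difference of 0.00 (SE 0.32) and a 95% interval of -0.73 to 0.74. That interval includes the -0.63 of Krt10. The sexes differed in sign, at 0.51 in females and -0.50 in males. Leaving out 1 library gave Krt1 differences from -0.44, without the female control, to 0.45. Krt2 was at 59.6 and 129 against 13.9 and 53.3 normalised counts, or 65 and 113 reads against 14 and 56 reads. Its log2 difference, -1.64, was the farthest from 0 of the 7, with an SE of 0.60 (limma adjusted p = 0.179). That SE was the largest of the 7, and the part of the low counts in it was not tested. The Krt2 difference was -0.71 without the female and -2.57 without the male labelled knockout, and -1.09 without the male control.

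In the basal group, Krt5 was at 199572 and 186498 in IMQ controls and 132064 and 156311 in labelled knockouts, a log2 difference of -0.43 (SE 0.19, limma adjusted p = 0.242). Krt14, its partner, overlapped at 235767 and 258042 against 175903 and 236140 (-0.28, SE 0.23). Without the female labelled knockout the Krt14 difference was -0.0628, and without the male -0.49. Krt5 and the Krt6 genes have similar sequences, as have Krt14, Krt16 and Krt17. How reads were divided between them was not tested. Krt15 was at 42348 and 32498 in controls and 21731 and 28625 in labelled knockouts, a log2 difference of -0.57 (SE 0.20, adjusted p = 0.163). It was -0.96 in females and -0.18 in males, and -0.37 without the female labelled knockout and -0.38 without the female control. In bulk tissue, fewer cells of a type and less RNA per cell cannot be told apart. Markers of other cell types differed as well: 11 of 12 fibroblast genes tested were lower in the IMQ labelled knockouts, with a median of -1.20, and markers of endothelium and muscle were lower in 11 of 11 (median -1.71), with 107 CPM in the female IMQ control and 6.08 to 16.6 CPM in the other 3 IMQ libraries. Their part in the keratin values was not tested.

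The difference between the 2 genotype effects, IMQ minus untreated, was negative for 7 of 7 keratins, but in both sexes for only 4 of 7. It was positive in males for Krt15 (0.12) and Krt14 (0.02), and in females for Krt1 (0.82). The median was -0.31 for the 7 and -0.03 for all genes. None of the 7 was called by limma (0% of all genes). By limma 1 member, Krt77, had an unadjusted p under 0.05, as had 10.1% of all genes in either direction and 6.02% with a lower value. For this difference, edgeR called 0 of all genes and DESeq2 99, with none of the 7 among them. Krt77 differed by -0.62 (SE 0.26, limma adjusted p = 0.485) and Krt10 by -0.60 (SE 0.36, adjusted p = 0.581). The controls were +/- in the untreated table and +/+ in the IMQ table, so control genotype and treatment cannot be told apart in it.

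**Figure D3:**
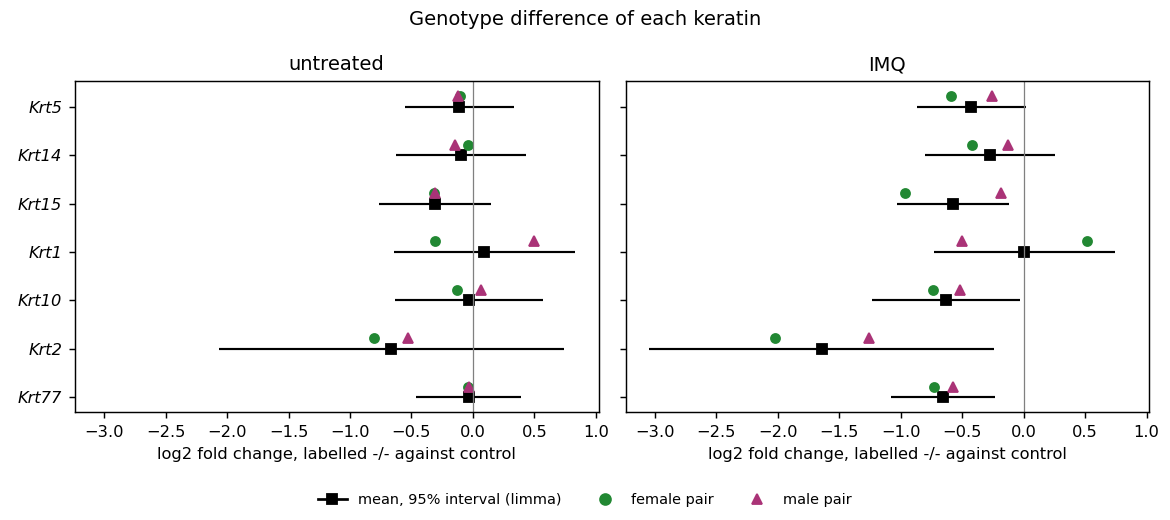
Log2 fold change of the labelled knockout against control for each keratin, untreated and under IMQ: squares are limma estimates with 95% intervals, circles and triangles the female and male differences. The IMQ intervals of Krt77, Krt15, Krt10 and Krt2 lie below 0 (unadjusted, from the fit of all 8 libraries). Krt1 has sexes on opposite sides of 0.

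The effect of IMQ itself was described without a test, as treatment and table cannot be told apart, and in the controls neither can genotype. Krt15 was the only member below all 4 untreated libraries in all 4 IMQ libraries, which holds for 23.7% of all genes. Its CPM was 4225 and 4668 in untreated controls, 1388 and 1055 in IMQ controls, 3346 and 3693 in untreated labelled knockouts and 704 and 939 in IMQ labelled knockouts. That is 3.67-fold lower in controls and 4.32-fold lower in labelled knockouts. By number of reads Krt15 ranked 12 to 15 untreated and 70 to 191 under IMQ. The hair follicle stem cell and outer root sheath list had a median log2 difference of -0.55 in controls and -0.38 in labelled knockouts, with 13 of 18 genes lower in each. Sebaceous gland genes were lower in 14 of 15 in controls (median -0.81) and 15 of 15 in labelled knockouts (median -1.34). Of 10 genes listed for RNA quality and handling stress, 6 were measured: Fos, Jun, Egr1, Hspa1a, Hspa1b and Dnajb1. The mitochondrial transcripts of that list were absent, so the 6 cover immediate-early and heat-shock genes and do not measure RNA quality. They were lower in 6 of 6 in controls (median -0.74) and 5 of 6 in labelled knockouts (median -0.69). The part of these lists in the Krt15 value was not tested.

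Krt14 was higher in both IMQ controls (7730 and 8375 CPM) than in both untreated controls (6278 and 5033 CPM), with overlap in the labelled knockouts. Krt10 and Krt77 overlapped between treatments in controls and not in the labelled knockouts, where the log2 difference was -0.73 for Krt10 (7989 and 7990 CPM against 3789 and 6146 CPM) and -0.63 for Krt77 (9876 and 9679 CPM against 5493 and 7230 CPM). Krt2 was lower without overlap in both genotypes, with log2 differences of -0.83 and -1.43. Both IMQ libraries were below both untreated libraries for 2 of the 7 in controls, against 32.3% of all genes, and for 4 of the 7 in labelled knockouts, against 40.1%. Krt5 and Krt1 overlapped in both genotypes.

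**Figure D4:**
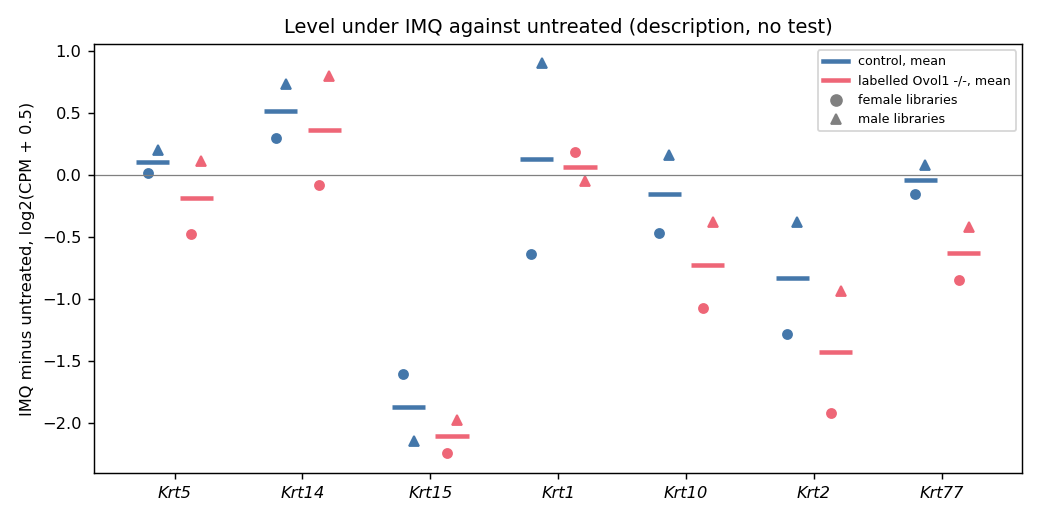
Difference in level between IMQ and untreated epidermis, log2(CPM + 0.5), for each keratin within labelled genotype; lines are group means, and circles and triangles the female and male differences. Krt15 is far below 0 in both genotypes, and Krt10 and Krt77 are below 0 in the labelled knockouts.

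Ratios within a library do not depend on scaling. The log2 ratio of Krt10 to Krt14 reads, suprabasal to basal, was 0.41 to 0.85 untreated, -0.27 and 0.06 in IMQ controls, and -0.59 and -0.33 in IMQ labelled knockouts. Untreated and IMQ libraries are separated, and the IMQ labelled knockouts are lowest. Krt5 to Krt14 was close to 0 untreated, from -0.02 to 0.09, and -0.24 to -0.60 under IMQ. Krt1 to Krt10 was -2.41 to -1.93 untreated, -2.10 and -1.67 in IMQ controls, and -0.84 and -1.65 in IMQ labelled knockouts; the female IMQ labelled knockout stood apart. Krt77 to Krt10 varied less, from 0.21 to 0.54 over all 8 libraries. Krt15 to Krt14 was -0.85 to -0.11 untreated and -3.04 to -2.48 under IMQ.

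**Figure D5:**
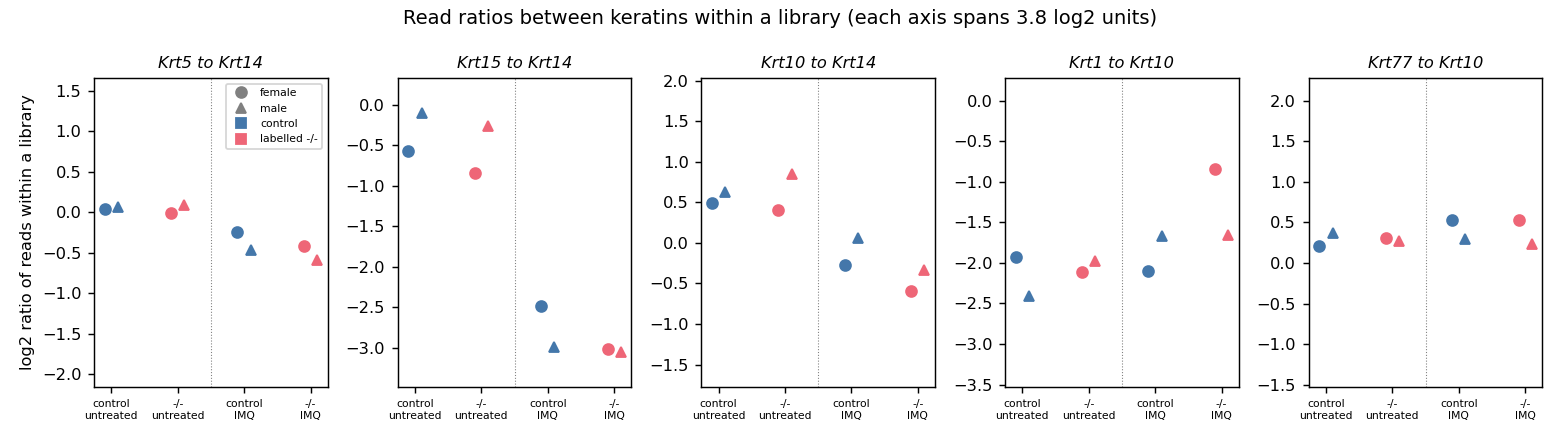
Log2 read ratios between keratins within each library, by group, on axes of equal span (3.8 log2 units). Krt15 to Krt14 and Krt10 to Krt14 separate the untreated from the IMQ libraries, and Krt1 to Krt10 is highest in the female IMQ labelled knockout.

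Over the 8 libraries, Krt10 and Krt77 had Pearson r = 0.963, Krt10 and Krt2 0.955, and the partners Krt1 and Krt10 0.145. Krt5 and Krt14 had r = 0.543. The libraries fall into treatments and share depth and scaling, so these r describe these libraries and have no p. Of 8514 genes with a mean of at least 10 CPM, those most like Krt77 were Lce1i, Lce1a2 and Lce1b (r = 0.994, 0.991 and 0.988), cornified envelope proteins of the outer layers. Lce1b was at 133 and 186 CPM in untreated controls, 102 and 107 CPM in untreated labelled knockouts, 97.3 and 190 CPM in IMQ controls and 7.08 and 20.8 CPM in IMQ labelled knockouts, where both libraries lay below all the others. Most like Krt15 were Decr2, Leprot and Thra (r = 0.997, 0.996 and 0.996), and most like Krt5 were Mcm7, a replicative helicase subunit, Fgfr2 and Ap1b1 (0.951, 0.949 and 0.943). Krt14 was closest to Mid2 (0.955), Krt10 to Atg9b (0.984), Krt2 to Arsa (0.983) and Krt1 to Twsg1 (0.979). The ranking depends on scaling: with each table centred on its own mean, the 3 genes most like Krt5 (Prc1, Jade2 and Cald1), Krt14 (Sgk1, Slc9a3r1 and Mcm5) and Krt15 (Ube2b, Cables1 and Nt5e) were all others, while Lce1i stayed closest to Krt77 and Twsg1 to Krt1.

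Other genes of the epidermal layers were counted in the same IMQ comparison. In the granular layer and envelope list, 15 of 19 tested were lower in labelled knockouts (median -0.44), and Lce1a1 (-3.19), Lce1b (-3.48) and Lce1c (-3.05) were called lower. Without any 1 of the untreated libraries, or with each table fitted alone, limma called 0 genes, these included. The spinous list had 10 of 16 lower (median -0.11) and the basal list 9 of 18 (median 0.03), with 0 called in each. The basal list's genes lay on both sides of 0; those with the largest differences at an unadjusted p under 0.05 were all lower, Thbs1 (-2.13), Sox6 (-1.50), Igfbp3 (-0.95) and Dst (-0.85). Among the other interfollicular and stress keratins, 7 of 12 were higher, with a median of 0.44 and 0 called. Krt6b had the largest difference, 3.33 (SE 0.91, limma adjusted p = 0.117), with 23.9 and 220 CPM in IMQ controls and 999 and 530 CPM in labelled knockouts. Krt17 was at 0.88 (SE 0.22) and Krt6a at 0.81 (SE 0.24), both keratins induced in wounds. Krt23 went the other way, at -1.79 (SE 0.54, limma adjusted p = 0.132).

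Of 14 genes listed as keratin filament anchors and cross-linkers, 11 were lower in IMQ labelled knockouts, with 0 called by limma. The median of the 14 was -0.34, against -0.01 for all genes. The list also holds Stub1 and Vim, which do not anchor or bundle keratin filaments. Vim was at 19117 and 11652 normalised counts in IMQ controls and 6533 and 11770 in labelled knockouts, lower in the female pair only. Eppk1, which bundles keratin filaments, was at -1.12 (SE 0.22, limma adjusted p = 0.0730). Dst, whose epithelial form ties filaments to hemidesmosomes, was at -0.85 (SE 0.15, adjusted p = 0.0657), and Ppl, a desmosome-linked plakin, at -0.70 (SE 0.22, adjusted p = 0.139). Tchh, trichohyalin, which cross-links keratin filaments in the hair follicle, was higher at 0.81 (SE 0.23, adjusted p = 0.124). Of 33 transcription factors of keratinocyte layers tested, 20 were higher and 0 were called, with Elf3 at 1.31 (SE 0.32, adjusted p = 0.0988) and, in the other direction, Jund at -0.78 (SE 0.20, adjusted p = 0.104).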

How the data were processed

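The values deposited by the authors are a signal, normalised read counts without a natural unit, in 2 separately scaled tables of 16902 symbols. The submitters' processing notes name the mm10 build, R 3.6.1, DESeq2 1.24.0, STAR 2.5.2a and Trimmomatic 0.35; for the read counter and annotation, the sources used here give nothing. Dividing a library's values by its smallest step left whole reads (100% within 0.001 read). Genotype effects were tested with limma 3.58.1 (R 4.3.3) on log2 of value plus 1, over 4 group means and 8 libraries, with trend and robust moderation, for 14614 genes with a mean of at least 10 in either table; Benjamini-Hochberg adjusted over all. Fold changes on this scale understate those of low genes. CPM used TMM factors of edgeR 4.0.16; DESeq2 1.42.0 was an alternative. Positions are from GENCODE vM21 (16745 symbols matched). Named genes were the 7 members, up to 4 genes per list with the largest difference at an unadjusted p under 0.05, and the 3 genes most like each member; further list members are described by count. The code was tested on simulated data. Members and lists were chosen with earlier results of these data known.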

Additional observations from a re-analysis of the deposited data

How the results depend on the processing

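Over the alternatives tried, genes called in untreated epidermis (0 by limma) numbered 5 with a pseudocount of 5, 7 with quantile normalisation, 8 with library size without the 7 keratins, 8 with each table alone, 8 with the replicate block (sex), 6 with edgeR and the block, and 89 with DESeq2; leaving out 1 library gave 0 to 2. Under IMQ (64 called) the counts were 115 with library size without the keratins, 0 with plain moderation, 0 with each table alone, 358 with the block, 292 with edgeR and the block, and 1242 with DESeq2, and 0 to 299 on omitting single libraries (299 without the male and 3 without the female IMQ labelled knockout, 5 without the female IMQ control, and 0 without any 1 of the untreated libraries). The difference had 99 with DESeq2. Of the 7 keratins, 1 was called, Krt77 by DESeq2, and 0 elsewhere; over the alternatives Krt77 under IMQ ran from -0.84 to -0.44. The replicate block is by sex, a shared label and not shared animals, and it called no keratin. Over genes, deviations of the female library from its group mean correlated between groups at 0.145 to 0.463. Without genes on X and Y these correlations were 0.0744 to 0.394.

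Signs near 0 turned. Untreated, quantile normalisation gave 0.00 for Krt5, 0.0132 for Krt14 and 0.0261 for Krt10, and leaving out 1 library gave -0.27 to 0.0488 for Krt5, -0.31 to 0.12 for Krt14, -0.13 to 0.0646 for Krt10 and -0.24 to 0.43 for Krt1. Under IMQ, quantile normalisation gave 0.0261 for Krt14; Krt1 was at -0.0214 without the keratins in the library size, -0.0674 with edgeR, -0.0585 with edgeR and the block and -0.0247 with DESeq2, and -0.44 to 0.45 when 1 library was left out. For the difference, Krt14 was at 0.0128 with quantile normalisation and -0.40 to 0.0335, and Krt1 at -0.53 to 0.36, when 1 library was left out. Between IMQ and untreated controls, deposited values gave -0.17 for Krt5 and -0.15 for Krt1; leaving out 1 library gave -0.0411 to 0.25 for Krt5, -0.31 to 0.57 for Krt1, -0.38 to 0.0686 for Krt10 and -0.14 to 0.0643 for Krt77. In labelled knockouts Krt1 was at -0.0650 without the keratins and -0.24 with deposited values. The number of keratins with all 4 IMQ libraries below all untreated ones (1) was 2 without the keratins in the total, 3 with deposited values, and 1 to 4 when 1 library was left out (4 without the male IMQ control). The cause of these changes was not tested. With 2 libraries per group, the number of libraries limits precision for the 6 abundant keratins, and depth also limits Krt2.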

Other observations

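In untreated epidermis of both genotypes, Krt5 and Krt14 were higher in the female library and Krt15 in the male. Krt5 was at 6475 CPM in the female and 5277 CPM in the male control, and at 5955 and 4747 CPM in the labelled knockouts; Krt14 was at 6278 and 5033 CPM, and at 6018 and 4448 CPM. Krt15 was at 4225 and 4668 CPM, and at 3346 and 3693 CPM. Mki67, a marker of cycling cells, was at 44.4 and 26.9 CPM in untreated controls and 51.0 and 27.2 CPM in untreated labelled knockouts, higher in the female each time. Under IMQ it was higher in the female control (36.5 against 21.9 CPM) but not in the female labelled knockout (16.8 against 20.4 CPM). Krt14, Krt10, Krt77 and Krt2 were each higher in the male IMQ library of both genotypes. Female against male, Krt14 was at 7730 against 8375 CPM in IMQ controls and 5696 against 7747 CPM in IMQ labelled knockouts. Krt10 was at 6406 against 8716 CPM and 3789 against 6146 CPM. With 1 library per sex and group, no test of sex was made.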
